A study of Mus musculus with 20 samples.

Results

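The glycolysis genes described here are the glucose transporter Slc2a1 and enzymes that carry glucose to lactate, Hk1, Hk2, Pfkl, Pfkp, Aldoa, Tpi1, Pgk1 and Ldha. They were chosen by symbol, and every probe set of a symbol was taken except array controls. Of 10 symbols on the list 9 were measured, by 24 of 45037 probe sets, or 9 of 18193 named genes. Eno1, the enolase of most tissues, was on the list and is not analysed here.

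Glycolysis breaks glucose down to pyruvate in the cytosol and yields ATP without oxygen. Glucose enters through transporters, hexokinase traps it as a phosphate, and phosphofructokinase makes the committed step. Dendritic cells are known for raising glycolysis when they are activated, and many genes of the pathway are targets of the hypoxia-inducible factor HIF1A and of MYC.

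Mouse RNA was hybridised to Affymetrix 3′ expression arrays, in 10 groups of 2 arrays, all of C57BL/6 bone marrow origin. Conventional dendritic cells (cDC) prime T cells and plasmacytoid ones (pDC) secrete interferon, and both had been differentiated in culture. In vivo CDP were common dendritic cell progenitors isolated from marrow without culture, and CDP and the earlier multipotent progenitors (MPP) were amplified in culture. A second set of cultured CDP received the cytokine TGF-β1 for 0, 4, 8, 12 or 24 h, where 0 h is the untreated group. Later untreated cultures were not analysed here, so the effect of TGF-β1 and that of time cannot be told apart. No deletion or transgene is named for any group. The labels give no dose and no number of mice, nor whether the arrays of a group came from separate cultures. The p-values therefore measure the spread between these arrays, which may be technical, and their number limits the precision. In RNA of whole samples, fewer cells of a type and less RNA per cell cannot be told apart.

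Values are the deposited log2 intensities, and a difference of 1 is a 2-fold change. A gene is reported by its main probe set, the one with the highest mean over the 20 arrays. Levels are compared between groups for 1 gene and never between genes. "Passed" means an adjusted p under 0.05 in limma, Benjamini-Hochberg over all tested probe sets. Shares of genes called higher or lower follow this rule. No share of all genes was counted for an unadjusted p under 0.05 or for arrays that do not overlap, so both only describe. With 2 arrays a group, arrays can fail to overlap without any difference. The labelled cell types carried their markers: the 6 cDC markers averaged 11.44 in cDC and 7.65 in pDC, and the 6 pDC markers averaged 9.005 in cDC and 13.70 in pDC. The 4 CDP markers averaged 11.67 in in vivo CDP and 9.93 in CDP, but 10.98 in cDC and 10.14 in pDC too. The 5 MPP markers averaged 8.59 in in vivo CDP, 6.37 in CDP and 9.85 in MPP, and 5.62 in cDC and 3.70 in pDC. Of these only Kit was higher in cDC (11.31 and 10.89) than in MPP (9.73 and 9.68).

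Some arrays stood apart. On array 1 of 4, 12 and 24 h of TGF-β1 the 5′ control probe sets were dim. The 3′ minus 5′ log2 difference was 1.89 to 2.11 for β-actin and 2.09 to 2.78 for Gapdh there. It was 0.19 to 0.35 and 0.01 to 0.10 on the other 7 arrays of that series. In cDC array 2, 3 of 4 measured markers of mast cells and basophils were raised, and the 4 averaged 5.07, against 3.28 on array 1. Cpa3 had 5.23 against 2.254 there, and Mcpt8 6.38 against 2.32. In pDC array 2, 4 of 5 measured monocyte and macrophage markers were raised, and the 5 averaged 9.48, against 7.51 on array 1. Adgre1 had 8.86 against 4.32 there, and Mrc1 7.08 against 2.78. Both arrays stood above their partners at every glycolysis gene, as described below. The CDP arrays were unlike too: the 6 cDC markers averaged 5.71 on array 1 and 4.24 on array 2. Cd74 had 8.88 and 6.25 there, and the 5 monocyte and macrophage markers averaged 8.81 and 8.00. The 5 erythroid markers averaged at most 2.57 on any array of these 5 cell groups, with 3 to 5 of 5 at the lowest value these arrays share.

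Promoters are shown for 4 of the 5 genes in which a hypoxia response core was found, since genes of the hypoxia response are set beside the glycolysis genes below. The motif searched was ACGTG on either strand, so that its complement is read as CACGT. RefSeq's GRCm38.p6 gave 13 windows of 250 bases before the start for the 9 genes. The core was in 6 windows of 5 genes (Slc2a1, Hk2, Aldoa, Pgk1 and Ldha), and in 16.572% of 32851 windows of the same length over all genes. Overlapping Aldoa windows among them hold the same site, 126 and 202 bases before their starts. Shares are per window, and none was counted per gene. The longer CACGTG, bound by MYC and related factors, holds the core on both strands. It was in 1 window, that of Ldha, and in 6.021% of all windows. The related GCGTG was in 5 windows of 5 genes, and in 28.157% of all windows. These counts describe letters and were not tested. Below, capitals mark ACGTG on either strand, and each window ends at the base before the start. The Slc2a1 window is on the plus strand (chr4:119108495-119108744), with the core 36 bases before the start. That of Hk2 is on the minus strand (chr6:82774455-82774704), with cores at 226 and 52 bases. The Pgk1 window is on the plus strand (chrX:106186850-106187099), with cores at 150 and 131 bases. That of Ldha is on the plus strand (chr7:46845554-46845803) and has the most matches, 5, where each of its 2 CACGTG counts on both strands. The other Ldha window had 0 matches.
Slc2a1: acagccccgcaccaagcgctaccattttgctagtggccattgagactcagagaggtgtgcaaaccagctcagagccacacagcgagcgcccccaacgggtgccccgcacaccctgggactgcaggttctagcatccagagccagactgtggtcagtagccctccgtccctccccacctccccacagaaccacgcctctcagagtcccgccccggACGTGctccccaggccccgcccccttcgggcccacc
Hk2: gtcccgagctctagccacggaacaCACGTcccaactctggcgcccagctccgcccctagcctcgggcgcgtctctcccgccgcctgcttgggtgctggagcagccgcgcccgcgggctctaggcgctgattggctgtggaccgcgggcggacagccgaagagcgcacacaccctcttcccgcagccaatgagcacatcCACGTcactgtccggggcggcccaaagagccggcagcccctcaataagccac
Pgk1: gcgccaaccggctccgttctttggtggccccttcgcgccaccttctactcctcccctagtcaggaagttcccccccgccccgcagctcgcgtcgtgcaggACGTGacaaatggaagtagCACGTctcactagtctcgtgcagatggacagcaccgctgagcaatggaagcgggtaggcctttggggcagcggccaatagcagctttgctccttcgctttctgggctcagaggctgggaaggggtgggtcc
Ldha: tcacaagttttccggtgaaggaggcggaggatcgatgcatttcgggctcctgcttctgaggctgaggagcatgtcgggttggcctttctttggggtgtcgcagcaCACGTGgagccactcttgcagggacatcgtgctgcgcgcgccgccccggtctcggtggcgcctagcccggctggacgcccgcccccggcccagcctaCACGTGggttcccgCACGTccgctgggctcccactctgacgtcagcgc

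Across the cell types no glycolysis gene passed in any comparison among cDC, pDC, CDP and MPP, while Hk1 and Hk2 had the largest differences. Slc2a1, the main glucose transporter of blood cells (GLUT1), had 11.08 and 12.50 in cDC and 11.18 and 12.42 in pDC. It had 9.38 and 9.44 in in vivo CDP, 10.61 and 11.32 in CDP, and 11.16 and 11.07 in MPP. The in vivo CDP arrays lay below all the others, and the highest were array 2 of cDC and pDC. On a second probe set those had 11.19 and 11.17, against 8.33 to 9.73 on the other 8 arrays. The cDC, pDC and CDP arrays overlapped.

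The hexokinases trap glucose in the cell. Hk1, the broadly expressed form, had 7.02 and 8.19 in cDC and 7.03 and 7.92 in pDC. It had 8.77 and 9.18 in in vivo CDP, 8.14 and 7.95 in CDP, and 9.85 and 9.76 in MPP. Both MPP arrays were above those of every other group. Hk2, the inducible form, had 10.48 and 11.36 in cDC and 8.96 and 10.47 in pDC. It had 9.58 and 9.54 in in vivo CDP, 9.09 and 9.81 in CDP, and 9.98 and 9.95 in MPP. Both cDC arrays were the highest, and pDC array 1 the lowest.

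The phosphofructokinases set the pace of the pathway. Pfkp, the platelet type, had 10.34 and 11.03 in cDC and 9.64 and 10.31 in pDC. It had 9.39 and 9.44 in in vivo CDP, 10.10 and 10.28 in CDP, and 9.97 and 10.23 in MPP. Again the cDC arrays were the highest and the in vivo CDP arrays the lowest. Pfkl, the liver type, ranged over 6.69 to 8.52 on these 10 arrays, with both extremes in pDC.

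The enzymes of the later steps follow. Aldoa, the aldolase that splits the sugar, ranged over 10.73 to 12.28, with both extremes in pDC. Tpi1, which interconverts the triose phosphates, ranged over 11.23 to 12.98, also with both extremes in pDC. Pgk1, which makes the first ATP of the pathway, ranged from 12.02 in in vivo CDP to 13.31 in pDC. Ldha, which turns pyruvate into lactate, had 11.79 and 12.17 in cDC, 11.07 and 12.11 in pDC, 12.19 and 11.66 in in vivo CDP, 12.15 and 12.42 in CDP, and 11.59 and 12.25 in MPP. For these 4 most groups overlapped, and none of the 4 passed by its main probe set in the comparisons that were tested.

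**Figure D1:**
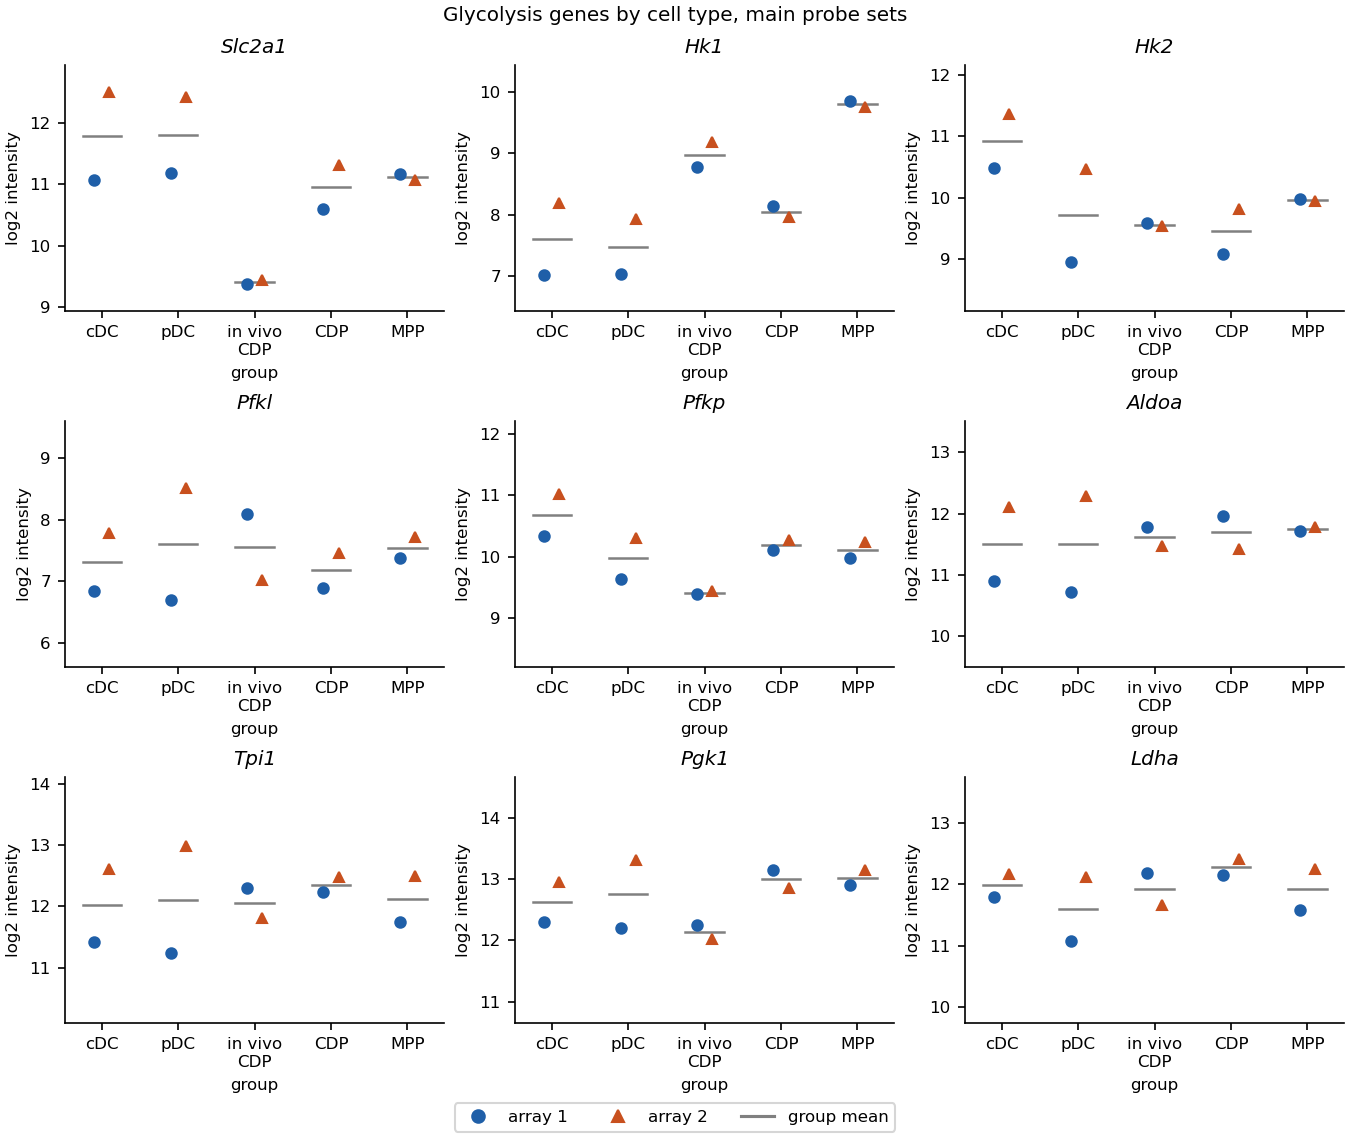
Log2 intensity of the main probe set of 9 glycolysis genes by group (circles, array 1; triangles, array 2; bars, group mean), each panel spanning 4 log2 units or more. Array 2 of cDC and pDC lies above array 1 in every panel, and in vivo CDP is lowest for Slc2a1 and Pfkp.

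In cDC against CDP the median difference over the 9 genes was -0.19, and -0.16 over all 8900 genes tested. In limma 0 of 9 passed, where 17.2% of genes tested were called higher and 27.1% lower. Only Hk2 had an unadjusted p under 0.05. Its difference was 1.47 (SE 0.54, adjusted p = 0.0709), and both cDC arrays lay above both CDP arrays. Its adjusted p was 0.0456 when the in vivo CDP arrays joined the fit and 0.0304 without either pDC array, so the call depends on which arrays set the spread. Pfkp also did not overlap, with a difference of 0.49 (adjusted p = 0.259). For Slc2a1 the difference was 0.82, with a 95% interval of -0.55 to 2.199. For Ldha it was -0.30, with an interval of -1.25 to 0.64.

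In pDC against CDP the median difference was -0.22, and -0.14 over all genes. Again 0 of 9 passed, where 20.4% of genes were called higher and 30% lower, and none had an unadjusted p under 0.05. The smallest adjusted p was that of Ldha, 0.189, with a difference of -0.69 (95% interval -1.63 to 0.25), and without pDC array 2 it was -1.21 (0.0499). Arrays did not overlap for Ldha, nor for Hk1 (-0.57), where pDC array 2 had 7.92 and CDP array 2 had 7.95. Slc2a1 had a difference of 0.84 (-0.54 to 2.21). In cDC against pDC also 0 of 9 passed, where 11.4% were called higher and 11.2% lower, and none had an unadjusted p under 0.05. Arrays did not overlap there for Hk2 (difference 1.21, adjusted p = 0.177) and Pfkp (0.71, adjusted p = 0.178).

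In CDP against MPP 0 of 9 passed, where 3.19% of genes were called higher and 2.72% lower. Only Hk1 had an unadjusted p under 0.05, with 8.14 and 7.95 in CDP, against 9.85 and 9.76 in MPP. Its difference was -1.76 (SE 0.44, adjusted p = 0.0851), and the adjusted p was 0.0489 when the in vivo CDP arrays joined the fit and 0.0458 and 0.0463 without cDC array 1 or 2. A second Hk1 probe set had 5.12 and 4.54 in CDP, against 6.85 and 6.34 in MPP. The other 8 genes had differences between -0.51 (Hk2, whose arrays did not overlap either) and 0.37. Markers of granulocytes moved with the groups: the 9 measured averaged 7.78 in CDP (arrays 7.04 and 8.51) and 11.40 in MPP (11.03 and 11.76), with 1 called higher and 8 lower in CDP. The 4 measured mast cell and basophil markers averaged 3.98 in CDP and 9.57 in MPP, with 3 called lower. The part of these markers in the Hk1 difference was not tested.

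**Figure D2:**
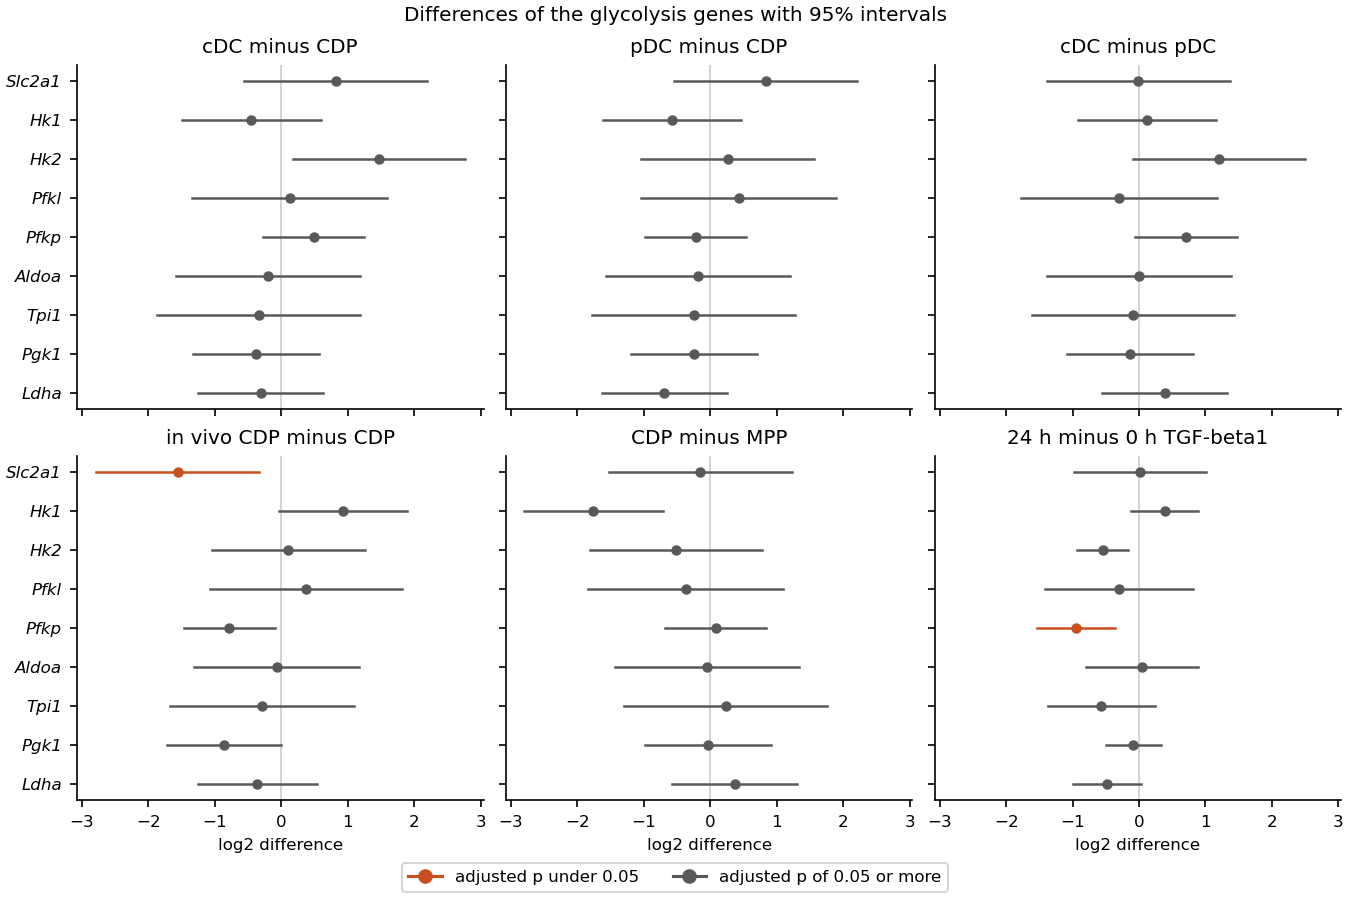
Log2 difference (points) with its 95% interval (lines) for 9 glycolysis genes in 6 comparisons, in colour where the adjusted p was under 0.05. Only Slc2a1 in in vivo CDP and Pfkp at 24 h of TGF-β1 are coloured, and most intervals span 0.

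The precision of these comparisons was set by a spread within the dendritic cell groups that the glycolysis genes shared. In cDC, array 2 was above array 1 at 9 of 9 genes and at 22 of 22 tested probe sets, by a median of 0.94 (0.38 to 1.42). In pDC, array 2 was also above array 1 at 9 of 9 genes and 22 of 22 probe sets, by a median of 1.24 (0.67 to 1.83). Over all 9121 genes tested the median gap was -0.01 in cDC and 0.01 in pDC. Gaps as large as the glycolysis median in that direction were seen at 2.28% of genes in cDC and 1.90% in pDC. Array 2 was the higher one for 6 of 9 genes in CDP, 6 of 9 in MPP and 3 of 9 in in vivo CDP, with medians of 0.25, 0.23 and -0.23. Because the fit pools this spread, the median SE of the 9 genes was 0.54, against 0.24 over all genes, and 5.22% of genes had an SE as large.

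Most genes of the hypoxia response showed the same order of arrays. Of 16 tested, 12 were higher on array 2 in cDC (median gap 0.97) and 13 in pDC (0.99), against 6 in CDP (-0.11) and 6 in MPP (-0.11). Over all genes, array 2 was higher at 47.3% in cDC and 51.7% in pDC. Other lists differed: it was higher at 4 of 8 other glycolytic enzymes in cDC (0.19) and 6 in pDC (0.79). For lactate and pyruvate it was 3 of 8 (-0.09) and 5 (0.06), and for pentose phosphate 3 of 6 (-0.04) and 3 (-0.15). The 3 hypoxia response genes that follow, and Pdk1 of the lactate and pyruvate list, were picked after their values were seen. Bnip3, a mitophagy receptor, had 9.03 and 11.56 in cDC and 9.88 and 11.77 in pDC. Egln3, an oxygen-sensing prolyl hydroxylase, had 4.77 and 8.67 in cDC and 8.33 and 9.73 in pDC. Vegfa, an angiogenic growth factor, had 4.96 and 7.40 in cDC and 6.87 and 8.64 in pDC. Pdk1, the kinase that restrains pyruvate dehydrogenase, had 10.83 and 12.28 in cDC and 11.24 and 12.44 in pDC. In each case both array 2 values exceeded their partners by more than 1 log2 unit. Hif1a itself had 11.35 and 11.18 in cDC and 12.28 and 12.14 in pDC, with array 1 slightly higher in both.

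The 3′ minus 5′ difference of β-actin was 0.69 and 0.84 on the cDC arrays and 0.84 and 0.94 on the pDC arrays, so it was alike on both arrays of each group. The raised mast cell and basophil markers of cDC array 2 and the macrophage markers of pDC array 2 moved with this gap. Their part in it was not tested.

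**Figure D3:**
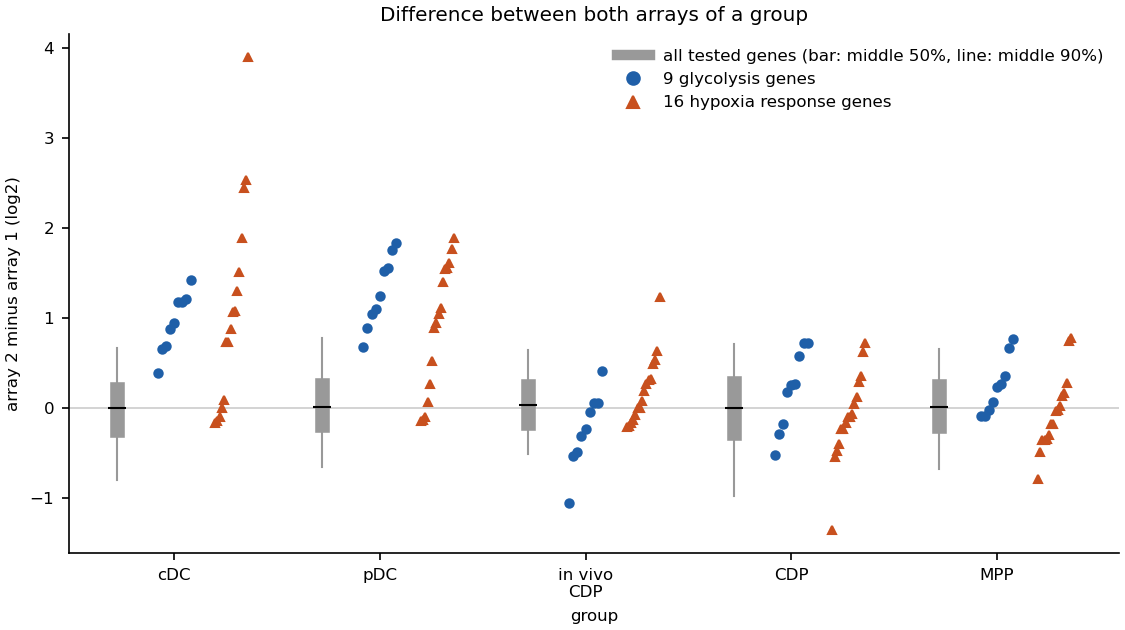
Array 2 minus array 1 (log2) in 5 groups for all tested genes (grey: bar, middle 50%; line, middle 90%; tick, median), 9 glycolysis genes (circles) and 16 hypoxia response genes (triangles). All circles lie above 0 in cDC and pDC, while in in vivo CDP, CDP and MPP they lie on both sides.

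With only array 2 of cDC and pDC kept, the Hk2 difference was 1.91 in cDC against CDP. That of Slc2a1 was 1.46 in pDC against CDP. With only array 1 kept, the Hk1 difference was -1.03 in cDC and -1.01 in pDC. With only array 2, 9.33% of genes were called higher and 15.8% lower in cDC, and 12.7% and 20.1% in pDC. With only array 1 these shares were 9.14% and 13.2% in cDC and 12.3% and 19.9% in pDC. In these fits a lone array is assumed to vary like the other groups, and they were chosen after the data were seen. Higher values with array 2 and lower ones with array 1 restate the gap above and add no support.

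Other genes of glucose use differed between the dendritic cells and CDP. Counts by list are to be read against all genes, of which 17.2% were called higher and 27.1% lower in cDC, and 20.4% and 30% in pDC. The 3′ minus 5′ difference of β-actin moved with these groups, with 0.69 to 0.94 on the cDC and pDC arrays and 1.23 and 2.11 on the CDP arrays, and its part was not tested. Of 8 other glycolytic enzymes tested, 2 rose and 2 fell in cDC, near the share of all genes, and 4 rose and 2 fell in pDC. Aldoc, an aldolase best known from brain, had 9.13 and 10.33 in cDC and 10.08 and 11.18 in pDC, against 7.32 and 6.02 in CDP. It rose by 3.06 in cDC (adjusted p = 0.00799) and by 3.96 in pDC (adjusted p = 0.00217). Eno3, the muscle enolase, had 9.10 and 7.602 in cDC and 6.47 and 6.87 in pDC, against 5.38 and 4.66 in CDP. It rose by 3.33 in cDC and by 1.65 in pDC.

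Hk3, the hexokinase of myeloid cells, went the other way and lay near or under 5. It had 4.94 and 5.39 in cDC and 3.14 and 4.07 in pDC, against 8.01 and 7.24 in CDP. It fell by 2.46 in cDC, and in pDC it was at least 6.16-fold lower, taking a level of 5 for pDC. The 9 granulocyte markers moved with Hk3, averaging 3.49 in cDC and 3.16 in pDC, against 7.78 in CDP, and their part in it was not tested. Pfkm, the muscle phosphofructokinase, was at least 2.66-fold lower in cDC and fell by 0.93 in pDC.

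Of 2 other glucose transporters tested, 1 rose in both cell types. Slc2a3 (GLUT3), a high-affinity transporter, had 10.43 and 10.99 in cDC and 10.42 and 11.33 in pDC, against 8.69 and 7.79 in CDP. It rose by 2.47 in cDC (SE 0.48, adjusted p = 0.00812) and by 2.64 in pDC (adjusted p = 0.00479). It passed in neither when only array 1 of cDC and pDC was kept.

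Of 8 genes of lactate and pyruvate handling, 5 fell in cDC and 4 in pDC, and none rose. Slc16a1, the lactate transporter MCT1, had 7.37 and 6.54 in cDC and 5.72 and 7.10 in pDC, against 11.50 and 11.42 in CDP. It fell by 4.50 in cDC and by 5.05 in pDC (adjusted p = 0.000941 and 0.000382). Dlat, a subunit of pyruvate dehydrogenase, fell by 1.71 in cDC and by 2.17 in pDC.

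Of 3 regulators of fructose bisphosphate tested, 2 rose in cDC and 1 in pDC. Pfkfb3, which makes the activator of phosphofructokinase, had 9.90 and 8.87 in cDC and 6.13 and 7.15 in pDC, against 6.89 and 6.998 in CDP. It rose by 2.44 in cDC. Pfkfb4, a related enzyme, rose by 2.03 in cDC and by 1.62 in pDC. Of 6 pentose phosphate genes 1 rose and 3 fell in cDC, and 2 rose and 3 fell in pDC. Pgd, which makes NADPH, fell by 1.53 in cDC and by 2.21 in pDC, and Rpia by 1.32 and 0.92. Taldo1, transaldolase, rose by 1.22 in cDC and by 1.33 in pDC, and Pgls, a lactonase of the oxidative branch, rose by 1.99 in pDC. With only array 2 of both groups kept, 0 pentose phosphate genes passed in cDC, and 2 genes of lactate and pyruvate handling fell in cDC and 3 in pDC.

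**Figure D4:**
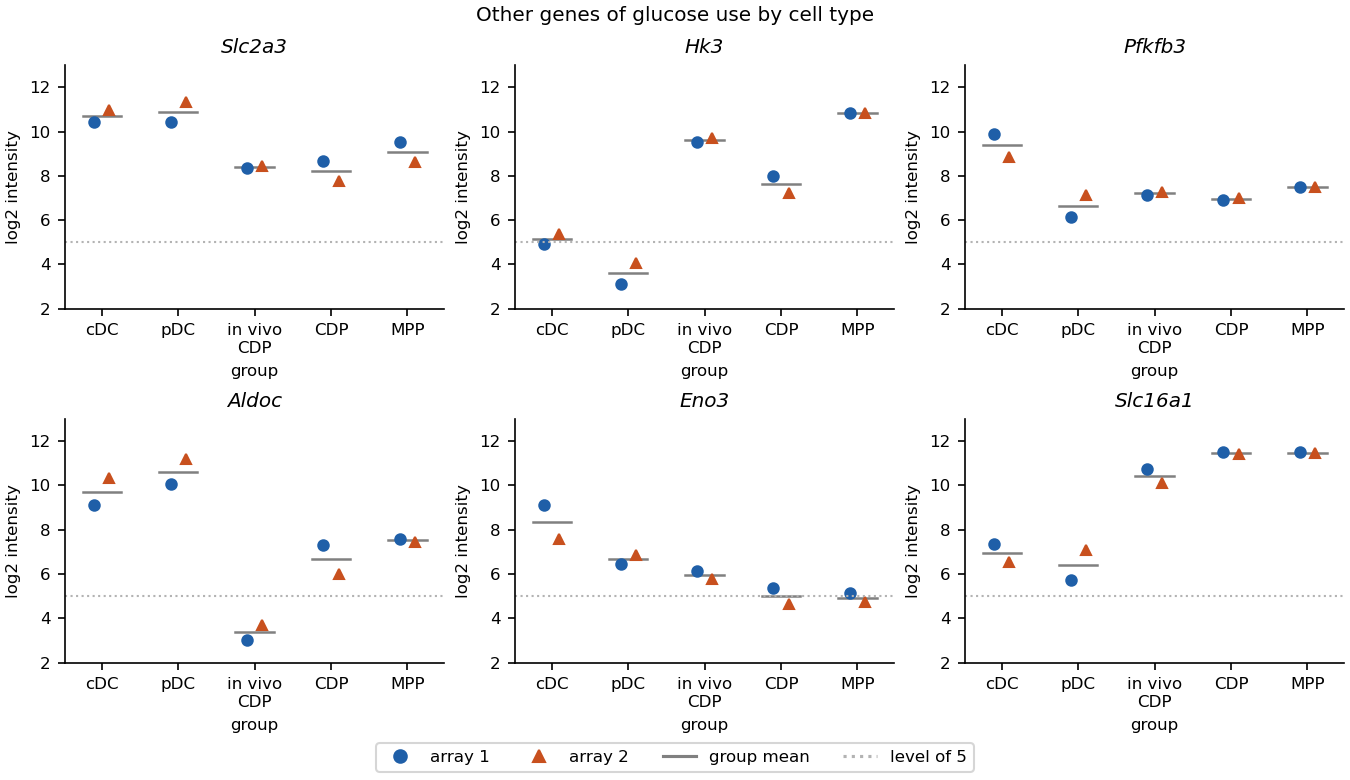
Log2 intensity of 6 other genes of glucose use by group (circles, array 1; triangles, array 2; bars, group mean; dotted line, the level of 5 used to call a gene measurable). Slc2a3 and Aldoc are higher and Hk3 and Slc16a1 lower in cDC and pDC than in CDP, and Pfkfb3 is high in cDC.

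Of 16 hypoxia response genes tested, 2 rose and 1 fell in cDC, and 5 rose and 2 fell in pDC. Counts with a lone array of cDC and pDC kept are not given for this list, since they would restate the gap between the arrays. Ankrd37, a small ankyrin repeat protein induced by hypoxia, had 8.57 and 10.45 in cDC and 9.37 and 10.98 in pDC, against 5.51 and 6.14 in CDP. It rose by 3.68 in cDC and by 4.35 in pDC. Vhl, which marks HIF1A for breakdown, rose by 1.36 in cDC, and P4ha1, a collagen prolyl hydroxylase, by 1.74 in pDC. Ero1a, an oxidase of the endoplasmic reticulum, fell by 1.91 in cDC and by 2.34 in pDC. Car9, a carbonic anhydrase, was under 5 in both pDC and CDP, and no fold is given.

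Of 7 genes of MYC and glucose sensing, 4 rose in cDC, and 2 rose and 1 fell in pDC. Txnip, which is induced by glucose and limits its uptake, had 12.87 and 12.86 in cDC and 12.61 and 12.74 in pDC, against 10.48 and 9.54 in CDP. Myc, a driver of growth, had 3.42 and 3.44 in pDC but 8.39 and 7.83 in CDP, which makes it at least 8.62-fold lower in pDC. Mycl was at least 13.1-fold higher in cDC and at least 17.8-fold higher in pDC than in CDP, where both arrays lay under 5. Between the dendritic cells, Myc was at least 20.0-fold higher and Pfkfb3 higher by 2.74 in cDC than in pDC. Pgls was lower by 2.15 and Hif1a by 0.94 in cDC than in pDC. Adpgk was called lower too, but its probe set had the same value, 6.9994, on cDC array 1 and on all CDP and MPP arrays. On cDC array 2 it had 6.94, slightly lower. A value repeated on so many arrays may not follow the RNA, so no difference is given. Hk3 was at least 1.12-fold higher in cDC. In CDP against MPP the calls were Hk3 (-3.23), Myc (-2.62) and Car9 (at least 1.71-fold lower in CDP).

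Some of these calls rested on single arrays. In cDC against CDP 12 of 17 named list genes passed with any 1 array left out, and Pfkm, Taldo1, Pgd, Rpia and Ero1a did not. Without cDC array 1 the Ero1a difference was -1.38 (adjusted p = 0.160), and without CDP array 2 that of Rpia was -0.99 (0.0759). In pDC against CDP 12 of 19 passed throughout, and Eno3, Pfkm, Taldo1, Rpia, P4ha1, Ero1a and Car9 did not. In cDC against pDC Hk3, Adpgk and Hif1a lost the call with some arrays, and in CDP against MPP Hk3, Myc and Car9 did. The adjusted p without an array reached 0.222 for Rpia in pDC and 0.150 for Hk3 in cDC against pDC.

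In vivo CDP differed from cultured CDP at 1 of 9 genes, Slc2a1, which fell. In limma 0 genes passed higher and 1 lower, where 26.3% of 9121 genes were called higher and 18.3% lower. An unadjusted p under 0.05 was seen at 3 of 9. As given above, the in vivo CDP arrays lay below both CDP arrays for Slc2a1. Slc2a1 was 2.94-fold lower (difference -1.56, SE 0.53, adjusted p = 0.0456), with no overlap. The call was lost without CDP array 2 (-1.20, adjusted p = 0.205), CDP array 1, either in vivo CDP array or either MPP array, and with a covariate for 5′ signal (-1.12, 0.184). The other Slc2a1 probe sets had differences of -0.91 (adjusted p = 0.265) and -0.48 (0.611).

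Pfkp and Pgk1 were on the same side without passing by their main probe sets. Pfkp had 9.39 and 9.44 on the in vivo CDP arrays and 10.10 and 10.28 on the CDP arrays (difference -0.78, adjusted p = 0.0659). On a second Pfkp probe set the in vivo CDP arrays had 3.73 and 3.09 and the CDP arrays 7.85 and 6.55. By it Pfkp was at least 4.60-fold lower in in vivo CDP (adjusted p = 0.00039). Pgk1 had 12.25 and 12.02 on the in vivo CDP arrays and 13.14 and 12.85 on the CDP arrays (difference -0.86, adjusted p = 0.0956). Its other probe sets passed, with differences of -1.58 and -1.5017 (adjusted p = 0.0058 and 0.00818). Of 22 tested probe sets of the 9 genes 0 passed higher and 5 lower, where 23.1% of 18027 probe sets were called higher and 19.7% lower, so the number lower was near that of all probe sets.

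Hk1 was split between its probe sets. The main one had 8.77 and 9.18 on the in vivo CDP arrays and 8.14 and 7.95 on the CDP arrays (difference 0.93, adjusted p = 0.106). The other had 3.54 and 3.33 in the in vivo CDP arrays and 5.12 and 4.54 in those of CDP, and it passed as lower (adjusted p = 0.0275), but near or under a level of 5, so no fold is given. The 2 probe sets thus differed in sign. For Hk2, Pfkl, Aldoa, Tpi1 and Ldha the main differences lay between -0.36 and 0.38, and the arrays overlapped.

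RNA amount, extraction kit and labelling kit differed between these groups, with 50 ng of in vivo CDP RNA and 1 µg of CDP RNA, and cannot be told apart from the source of the cells. The 3′ minus 5′ difference of Gapdh was 0.98 and 0.47 on the in vivo CDP arrays and -0.15 and 0.19 on those of CDP. That of β-actin was 1.39 and 1.09 on the in vivo CDP arrays and 1.23 and 2.11 on those of CDP. The 9 granulocyte markers averaged 9.83 in in vivo CDP (arrays 9.10 and 10.57) and 7.78 in CDP (7.04 and 8.51). The 5 MPP markers averaged 8.59 in in vivo CDP and 6.37 in CDP (3 called higher). The 6 pDC markers averaged 7.39 in in vivo CDP and 5.63 in CDP (4 called higher and 1 lower). Over all genes 26.3% were called higher and 18.3% lower. Beyond the covariate above, the part of these in the Slc2a1 difference was not tested.

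Among list genes, Pdk1 had 9.62 and 9.17 on the in vivo CDP arrays and 11.71 and 11.98 on those of CDP, and it fell by 2.45 (adjusted p = 0.00683). Of all genes 26.3% were called higher and 18.3% lower, and the counts by list are to be read against these shares. Of 16 hypoxia response genes 1 rose, Vhl by 1.32, and 3 fell, near the share of all genes called lower. Ero1a fell by 2.54 and Ddit4, an inhibitor of mTOR signalling, by 1.21. Of 8 genes of lactate and pyruvate handling 3 fell, and of 8 other glycolytic enzymes 2 rose and 1 fell. Of 7 genes of MYC and glucose sensing 3 rose, as did 1 of 3 regulators of fructose bisphosphate. Of 6 pentose phosphate genes 1 rose, and 0 of 2 glucose transporters passed. Aldoc was at least 3.18-fold lower in in vivo CDP, and Hk3 rose by 2.00 and Bpgm, which diverts a glycolytic intermediate, by 1.34. In the other lists, Dlat fell by 1.25, and Pgls rose by 2.03, Pfkfb4 by 0.64, Myc by 2.01 and Mycl by at least 8.32-fold. Of the 12 named list genes 8 passed with any 1 array left out. Dlat, Ddit4 and Pdk1 lost the call without 1 in vivo CDP array (adjusted p up to 0.0598), and Pfkfb4 without any array of either group (0.0922).

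Under TGF-β1 1 of 9 genes passed, Pfkp, which fell at 24 h, and none passed at 4, 8 or 12 h. The count at 24 h was near the share of all genes called there, 17% over both directions. Pfkp had 10.96 and 11.26 at 0 h, 10.16 and 10.36 at 4 h, 10.52 and 10.48 at 8 h, 10.60 and 10.03 at 12 h, and 9.91 and 10.41 at 24 h. All 8 treated arrays lay below both untreated ones, as was the case for 7.475% of the 12655 genes tested, and for no other glycolysis gene. At 24 h it was 1.93-fold lower (difference -0.95, SE 0.25, adjusted p = 0.0430), where 9.61% of genes were called higher and 7.37% lower. Without 24 h array 1, which had low 5′ signal, the difference was -0.70 (adjusted p = 0.224), and without all 3 such arrays it was -0.70 (0.0494). The call was also lost without either 0 h or either 8 h array (adjusted p up to 0.249, without 0 h array 2). The other 2 probe sets of Pfkp had differences of -1.86 and -0.96 at 24 h (adjusted p = 0.134 and 0.124).

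At the earlier times limma passed 0 of 9. Of all genes 0.387% were called higher and 0.0395% lower at 4 h. At 8 h these shares were 0.806% and 0.126%, and at 12 h 2.85% and 1.11%. An unadjusted p under 0.05, a looser threshold than that of the shares, was seen for Hk2, Pfkl and Pfkp at 4 h. At 8 and 12 h it was seen for Pfkp. With the low 5′ arrays left out Pfkp passed at 12 h (-1.08, adjusted p = 0.0416). In the F-test over all times 0 of 9 passed, with the lowest unadjusted p at Hk2 (0.0157, adjusted p = 0.136) and Pfkp (0.0342, adjusted p = 0.215), where 7.43% of genes passed.

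Hk2 had 10.73 and 10.85 at 0 h, 10.08 and 10.06 at 4 h, 10.45 and 10.55 at 8 h, 10.77 and 10.47 at 12 h, and 10.16 and 10.32 at 24 h. Of the 8 treated arrays 7 lay below both untreated ones, the exception being 12 h array 1. For counts under 8, here and for Hk1 and Tpi1 below, no share of all genes was counted. All treated arrays are set against the same 2 untreated ones, so the counts only describe. The Hk2 difference was -0.72 at 4 h (adjusted p = 0.250) and -0.55 at 24 h (SE 0.17, adjusted p = 0.0687). Hk1 had 9.50 and 9.54 at 0 h and 9.97 and 9.84 at 24 h, and 6 of 8 treated arrays lay above both untreated ones (difference at 24 h 0.38, adjusted p = 0.313). The 2 hexokinases thus had differences of opposite sign at 24 h, neither of which passed, and a second Hk1 probe set had -0.60 (adjusted p = 0.481).

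Slc2a1 had 10.93 and 11.10 at 0 h, 11.31 and 10.28 at 4 h, 11.01 and 11.13 at 8 h, 11.85 and 10.89 at 12 h, and 11.41 and 10.64 at 24 h. Array 1 was higher by 0.77 to 1.03 at 4, 12 and 24 h, the arrays with low 5′ signal, so that the treated arrays lay on both sides of the untreated ones. The third probe set differed from this: it had 7.52 and 8.39 at 4 h and 8.49 and 8.56 at 24 h, against 9.20 and 9.17 at 0 h. Its differences were -1.23 at 4 h (adjusted p = 0.210) and -0.66 at 24 h (0.156), and the F-test gave an adjusted p of 0.0646. At 8 h, where neither array had low 5′ signal, the difference was 0.06 (95% interval -0.94 to 1.05). Ldha had 13.59 and 13.74 at 0 h and 13.10 and 13.27 at 24 h (difference -0.48, adjusted p = 0.207). Tpi1 had a difference of -0.57 at 24 h (adjusted p = 0.351), and 7 of 8 treated arrays lay below both untreated ones.

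Among the arrays with low 5′ signal, that of 4 h stood furthest from its partner. There array 1 lay below array 2 at 19 of 24 probe sets, by a median of 0.54 and by up to 3.02, the gap of an Aldoa probe set with 9.54 and 12.56. At 12 h array 1 was lower at 5 of 24, and at 24 h at 16 of 24. For Aldoa the main probe set had 12.27 and 13.55 at 4 h, against 13.49 and 13.63 at 0 h, and array 2 lay within the untreated range. Pgk1 differed by -0.15 to 0.04 from 0 h at all 4 times. With β-actin 3′ minus 5′ as a covariate the 24 h difference was -0.93 for Pfkp (adjusted p = 0.0236) and -0.57 for Hk2 (0.0296), which then passed. The part of 5′ signal was not tested in other ways.

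**Figure D5:**
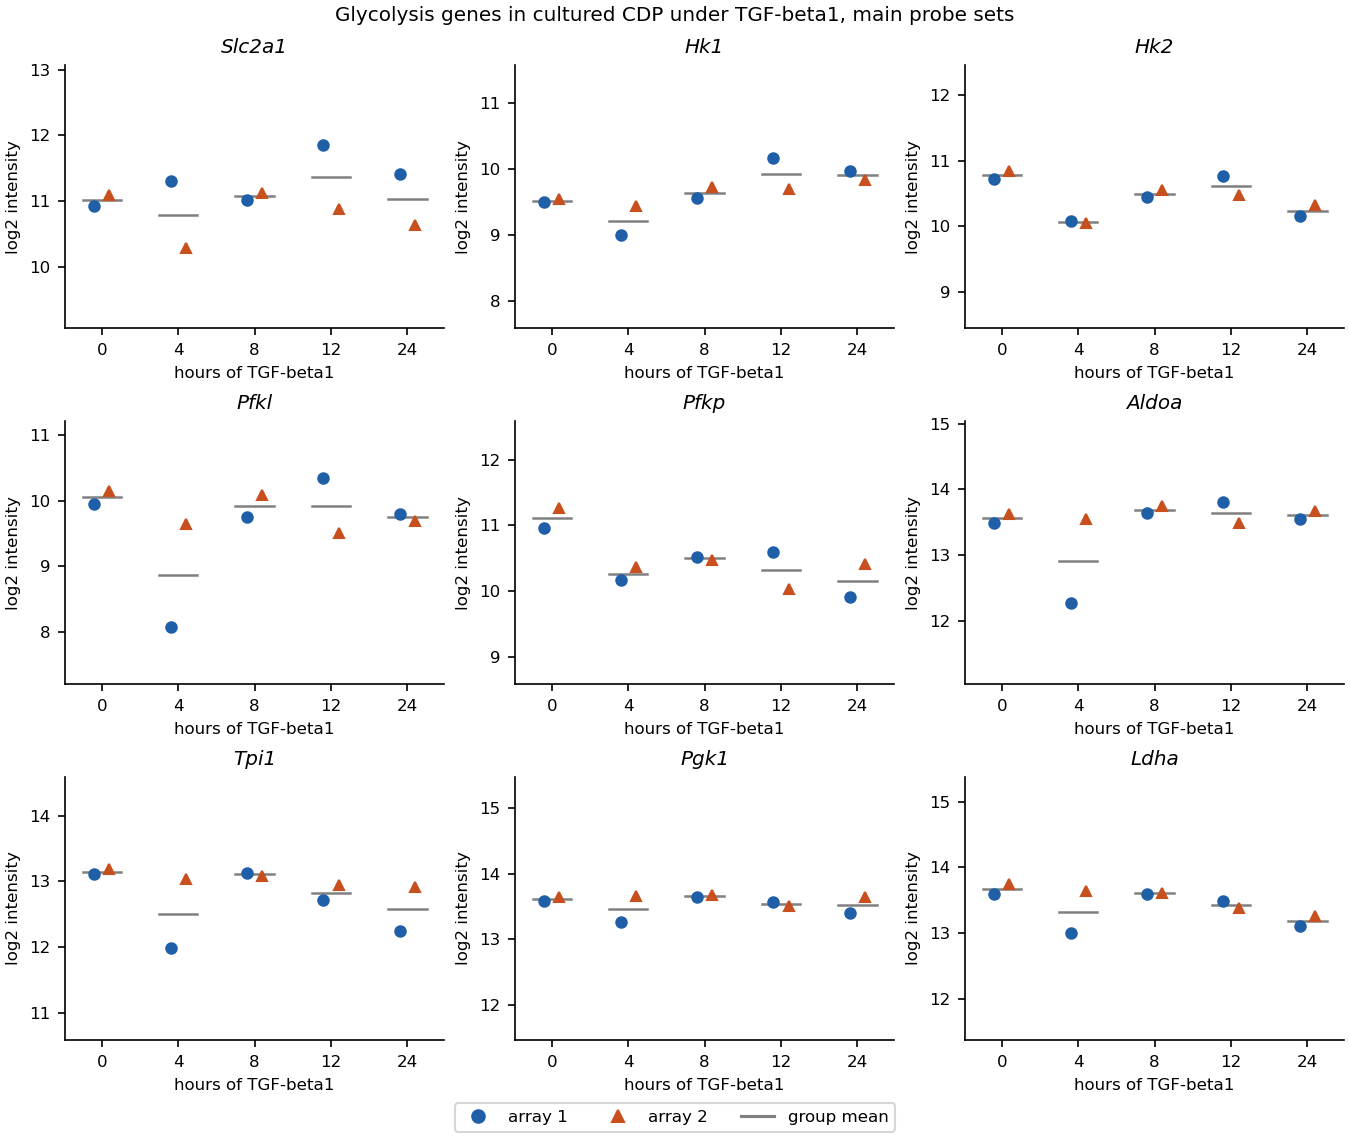
Log2 intensity of the main probe set of 9 glycolysis genes in cultured CDP by hours of TGF-β1 (circles, array 1; triangles, array 2; bars, group mean), each panel spanning 4 log2 units or more. For Pfkp all 8 treated arrays lie below the 0 h arrays, and for Slc2a1 array 1 is the higher one at 4, 12 and 24 h.

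Genes around the pathway changed at 24 h. Aldoc had 10.73 and 11.69 at 24 h, against 8.31 and 8.52 at 0 h, and rose by 2.80 (adjusted p = 0.00315). Slc16a1 had 9.34 and 9.64 at 24 h, against 12.32 and 12.01 at 0 h, and fell by 2.68 (adjusted p = 0.0018). Myc had 7.94 and 8.50 at 24 h, against 11.49 and 11.35 at 0 h, and fell by 3.20 (adjusted p = 0.00131). These 3 of 10 named list genes passed with any 1 array left out. Markers of cDC moved with them: 6 of 6 rose at 24 h, averaging 9.26 at 24 h and 7.12 at 0 h. Of all genes 9.61% were called higher and 7.37% lower at 24 h. Markers of other types rose too, 2 of 5 tested for MPP, 2 of 4 for CDP and 2 of 5 for pDC. The 9 granulocyte markers averaged 6.61 at 24 h and 7.74 at 0 h, with 2 called lower. The part of these markers was not tested.

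The other 7 lost the call without some array: Hk3 (-1.21), Bpgm (0.91), Pfkfb4 (0.90), Ddit4 (1.63), Vhl (1.09), Txnip (1.02) and Mycl (1.82). Their adjusted p reached 0.0704 for Ddit4, 0.149 for Hk3 and 0.201 for Pfkfb4. Counts by list at 24 h are to be read against all genes, of which 9.61% were called higher and 7.37% lower. Of 11 other glycolytic enzymes 2 rose and 1 fell, and 0 of 7 glucose transporters passed. Of 12 genes of lactate and pyruvate handling 1 fell. Of 19 hypoxia response genes 2 rose, and 0 of 6 pentose phosphate genes passed. Without the 3 low 5′ arrays the counts higher and lower were 2 and 2, 1 and 0, 1 and 2, 2 and 2, and 0 and 1 for these lists in the same order, where 13.3% of genes were called higher and 12% lower. At 12 h Ddit4 rose by 1.72 and Myc fell by 2.21, with calls lost without any 0 h or 12 h array, and for Ddit4 any 8 h array (adjusted p up to 0.176 and 0.161). At 4 and 8 h no gene of these lists passed in limma. In the lists not counted above, 1 of 5 regulators of fructose bisphosphate rose at 24 h. Of 8 genes of MYC and glucose sensing 3 rose and 1 fell at 24 h.

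The 9 genes tended to vary together in both sets of arrays. Over the 8 arrays of cDC, pDC, CDP and MPP, the 36 pairs of genes had a median Pearson correlation of 0.56 (-0.10 to 0.95), and 35 were above 0. Over the 10 arrays of the TGF-β1 series the median was 0.56 (-0.48 to 0.95), and 30 were above 0. Arrays within a group share preparation and the points share their scaling, so these values only describe the arrays. The genes most like 3 members by correlation were listed as well. Over the 8 arrays they were Slc13a3 (0.96) for Slc2a1, Agfg2 (0.96) for Hk2 and G2e3 (0.91) for Ldha. Over the 10 arrays they were Ucma (0.97) for Slc2a1, Sap30 (0.94) for Hk2 and Ino80e (0.98) for Ldha.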

How the data were processed

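The deposited table holds log2 probe set intensities that the authors had background-adjusted and normalized, and the submitters' processing notes name GCRMA, without a version. Per the labels, 1 µg of RNA was labelled with a one-cycle kit for MPP, CDP, cDC and pDC, and 250 ng (TGF-β1 series) or 50 ng (in vivo CDP) with a 3′ kit. The TGF-β1 arrays had medians of 5.29 to 5.36, the others of 2.46 to 2.52 with a shared lowest value, so no level was set across them.

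Of 45101 probe sets 64 controls were left out. The platform annotation gave 34945 probe sets 1 gene, 932 several and 9160 none. Deposited values were used without further scaling. limma 3.58.1 in R 4.3.3 (lmFit, eBayes) was run on probe sets above 5 on at least 2 arrays, in 3 fits: 8 arrays (cDC, pDC, CDP, MPP), 10 arrays (those with in vivo CDP) and the 10 TGF-β1 arrays. The p-values are two-sided, adjusted by Benjamini-Hochberg over the 17501, 18027 and 26606 probe sets tested. The code was tested on simulated data. If neither array of the lower group reached 5, a fold is given against 5 as "at least", and the p tests the full difference. Some probe sets repeated 1 value above 5 on several arrays, such as Adpgk (6.9994) and Arnt (7.48964), and still counted as tested.

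The genes and lists were chosen with earlier results of these data known. Named are all 9 genes, and from 7 lists up to 2 passing genes per direction with the largest difference. Alternatives were 1 probe set per gene, other filters, scalings and eBayes settings, the replicate number as a block, and each array left out. Some were chosen after the data were seen and are named as such.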

Additional observations from a re-analysis of the deposited data

How the results depend on the processing

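With 2 arrays a group, calls near the threshold depended on the processing, and no named difference changed sign while called. Filtering at 6, centring each array and 1 probe set per gene kept every count of glycolysis genes. Quantile normalization and eBayes with trend and robust settings each took the count at 24 h of TGF-β1 to 0 (Pfkp adjusted p = 0.0540 and 0.0516), and the eBayes settings took that of in vivo CDP to 2. Without a filter on low values the in vivo CDP count was 0 (Slc2a1 adjusted p = 0.216). A fit of 10 arrays gave 1 gene in cDC against CDP and 1 in CDP against MPP. Keeping 1 array each of cDC and pDC gave 1 in either comparison with CDP. A β-actin covariate gave 0 genes in in vivo CDP, 2 at 24 h and 2 in the F-test. Without the 3 low 5′ arrays 1 gene passed at 12 h. The cause of these changes was not tested beyond what the settings themselves remove.

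Replicate numbers were checked for pairing. Deviations of same-numbered arrays correlated between groups at 0.15 to 0.83 in the TGF-β1 series and at -0.02 to 0.58 on the other arrays, and nothing in the labels says what a number marks. With the replicate block the counts of glycolysis genes were 1 in cDC against CDP (Hk2, adjusted p = 0.0192), 1 in pDC against CDP (Ldha, 0.0496), 2 in in vivo CDP (Slc2a1, 0.0161, and Pfkp, 0.0254) and 2 at 24 h (Pfkp, 0.0299, and Hk2, 0.0481). The block changed no other count of these genes. It gave 115, 358, 1166 and 3393 of all genes at 4, 8, 12 and 24 h and 2015 in the F-test, against 54, 118, 501, 2149 and 940 without it.

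Other counts over all genes moved by more than 1.5 times. Without a filter they were 2435 in cDC against CDP (3942 as reported), 1261 in cDC against pDC (2013) and 254 in CDP against MPP (526). With 1 probe set per gene they were 82 at 4 h and 196 at 8 h. Without the low 5′ arrays they were 23, 475 and 753 at 4, 8 and 12 h, and with the covariate 159, 761, 1750 and 3990 at 4 to 24 h and 2975 in the F-test. Keeping only array 2 of cDC and pDC gave 2172 in cDC and 2828 in pDC against CDP, and keeping only array 1 gave 1931 and 2779 (4490 as reported in pDC).

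With 1 array left out, the count of glycolysis genes was 0 to 1 in cDC against CDP, pDC against CDP, CDP against MPP and at 24 h. It was 0 to 3 in in vivo CDP and 0 to 2 at 4 h and in the F-test, and 0 elsewhere. Over all genes the counts were 2432 to 3624 in cDC against CDP, 3224 to 4302 in pDC against CDP, 996 to 1946 in cDC against pDC, 123 to 440 in CDP against MPP and 2444 to 3946 in in vivo CDP. They were 2 to 865 at 4 h, 16 to 202 at 8 h, 79 to 795 at 12 h, 654 to 2947 at 24 h and 204 to 2222 in the F-test.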
